A study of Mus musculus with 4 samples.

Results

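The acyl-CoA thioesterase (Acot) genes of the mouse were examined in the liver of mice with diet-induced obesity (DIO) that received GALP (galanin-like peptide, a neuropeptide of the hypothalamus) into the nose. The 10 genes Acot1, Acot2, Acot3, Acot4, Acot6, Acot7, Acot8, Acot9, Acot12 and Acot13 were taken by the gene name that the array files give each probe. They had 14 of the 41174 probes on the array, and 12 of these were well above background in both channels of all 4 arrays. The genes were chosen because the ratio of GALP to saline in these same arrays was known for some of them. Their ratios are therefore given as a description without a test, and no count of them is read as evidence of a change.

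The mice were male C57BL/6J kept for 14 weeks on a high-fat diet, and those used weighed at least 40 g. They were bought at 8 weeks of age, and no genetic modification is named for any group. GALP (1 nmol, porcine peptide, with 5% alpha-cyclodextrin) or saline was given once daily in 2 µL for 11 days, so the controls shared the diet, the obesity and the nasal dosing and the labels name their treatment as saline. RNA of 4 GALP mice with greater weight loss and of 4 GALP mice with less weight loss formed 2 pools, and each was hybridised on 2 arrays against the same pool of 8 saline mice, with the Cy3 and Cy5 dyes exchanged between the arrays (a dye swap). The GALP pools were thus formed by how much weight the mice lost, and pooling leaves no value for a single mouse. Every value of a ratio below is the log2 of GALP over saline, each pool is the mean of its 2 arrays, and mean ± SD is over the 2 pools. The saline pool is 1 sample that enters every ratio, and its own spread is in no SD.

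Acyl-CoA thioesterases split a fatty acyl-CoA into the free fatty acid and coenzyme A, the reverse of what the acyl-CoA synthetases do, and so set the balance of activated and free acids in a compartment of the cell. The type I enzymes (Acot1 to Acot6 in the mouse) resemble each other closely, lie side by side on chromosome 12 and differ mainly in where they act and on which chain, and several are known targets of PPARalpha, the fatty acid receptor of the liver. The type II enzymes (here Acot7, Acot8, Acot9, Acot12 and Acot13) are built on another fold, the hot dog domain, and are scattered over the genome.

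On the arrays as a whole, a channel had 40.5% to 46.7% of its spots well above background and none saturated. Of the 8 hepatocyte markers looked for, 7 were on the array and all 7 were well above background, with a median log2 ratio of 0.05. Of 5 adipocyte markers 1 was well above background on all arrays, and Lep, Retn and Ucp1 were at background. Of 6 Kupffer cell markers 1 (Marco) was called higher by the rule given below, as was 1 of 6 sinusoidal endothelial markers (Lyve1), with list medians of 0.07 each and summed signals of 20536 to 22959 in saline and 23107 to 28264 in GALP channels for the first and 34014 to 46886 and 34222 to 42001 for the second. The skeletal muscle markers had a median log2 ratio of -0.85, and their summed signal was 1363 to 1616 in the saline channels and 263 to 2275 in the GALP channels. The part of these cell types in the thioesterase ratios was not tested. In pooled tissue, fewer cells of a type and less RNA per cell cannot be told apart.

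Acot1, Acot2, Acot3 and Acot4 had ratios above 0 on all 4 arrays, and Acot6 and the type II members did not. By the strict reading of the study's methods, a probe is called when the p-value of the scanner software is under 0.01 on all 4 arrays, the direction is the same on all 4, and the fold is over 1.5 or under 0.75 in both pools. Among the members, 3 probes were called higher (Acot1 and both probes of Acot3) and 0 lower, where the same rule called 24 of 41037 probes higher (0.0585%) and 54 lower (0.132%). Because the members were chosen with this contrast known, nothing is read from that count. Limma on the 2 pool ratios with Benjamini-Hochberg adjustment gave 0 probes higher and 0 lower over the whole array, while 2049 probes (4.99%) lay higher and 2710 (6.6%) lower when the p under 0.05 was left unadjusted.

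**Figure D1:**
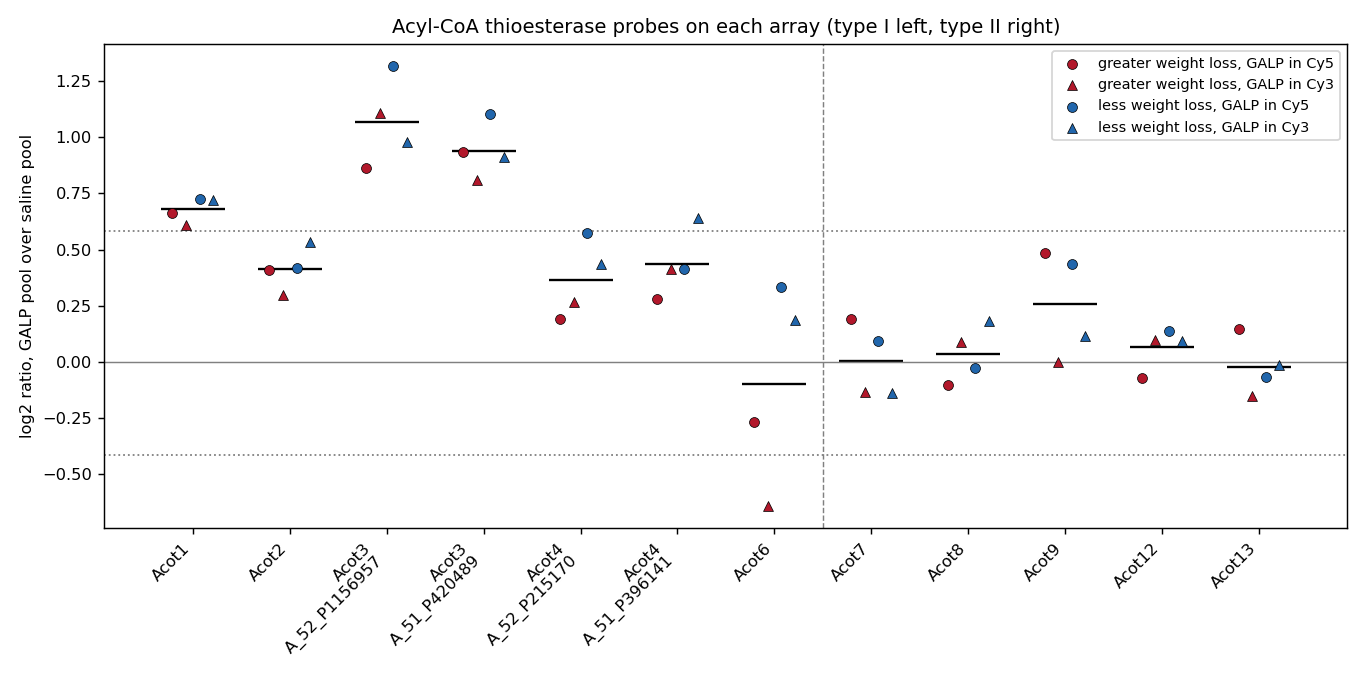
Each point is the log2 ratio of the GALP pool over the saline pool for 1 probe on 1 array, red for the pool with greater weight loss and blue for the pool with less, circles with GALP in Cy5 and triangles with GALP in Cy3. Black bars are means over the 2 pools, dotted lines are folds of 1.5 and 0.75. The 6 probes of Acot1 to Acot4 lie above 0 on every array, Acot6 is split by pool, and no probe of a type II member lies above 0 on every array.

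The probes of the type I genes are printed because these genes are close relatives, and the ratios are only as separate as the probes. Given here are bases 16 to 45 of each 60-base probe, 5′ to 3′, as the array files hold them, without capitals because no single stretch is singled out.

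Acot1, probe A_51_P451574: gattcaagggctgggaatggagtttcattg

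Acot2, probe A_52_P525183: atattatcacaatgtcagttcaggttagtt

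Acot3, probe A_52_P1156957: attactaccttagtcaccaactagtaagag

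Acot3, probe A_51_P420489: atcctttggaaggacctgaccagaagagct

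Acot4, probe A_52_P215170: aattcatgtttagggcattaatggcttata

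Acot4, probe A_51_P396141: ctaggagctgatgtctgtctgatcatggct

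Acot6, probe A_51_P191354: cacttctcttttctctgagcggtaggctaa

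Over all 91 pairs of the 14 member probes, the longest run of bases in common was 9. No other probe on the array shared a run of 20 bases with any of them. How well each probe would bind the transcripts of the other type I genes was not analysed here. RefSeq held the accession of 11 of the 14 probes, and all 11 carried the same gene symbol there. The 3 probes of Acot6 are named by Ensembl transcripts. The files give positions on mm9 but name no exon or UTR.

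Acot1, the cytosolic type I enzyme for long chains, is read by 1 probe (NM_012006, chr12:85358452-85358511 on mm9, plus strand). Its processed signal ran from 5061 to 5574 in the 4 saline channels and from 7943 to 8964 in the 4 GALP channels, so that the lowest GALP value stood above the highest saline value. The ratios were 0.66 and 0.61 in the pool with greater weight loss (GALP in Cy5 and in Cy3) and 0.73 and 0.72 in the less weight loss pool. Both arrays of the second pool were higher than both of the first, by a small margin. The pool values were 0.64 and 0.72, a mean of 0.68 ± 0.06 or 1.60-fold, and this was the 85th highest of the 15724 probes well above background. The dye exchange moved the ratio by 0.05 in the first pool and by 0.00 in the second, where the median probe moved by 0.19 and 0.23. The lowest pool fold of a called member was here, 1.55-fold in the pool with greater weight loss.

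Acot3, a peroxisomal enzyme for long chains, gave the highest ratios of the family on 2 probes that the files tie to different transcripts. The probe of NM_001346701 (A_52_P1156957, chr12:85401016-85401075, plus strand) had 0.86 and 1.11 in the greater weight loss pool and 1.32 and 0.98 in the less weight loss pool. The pools overlapped, with the highest and the third highest array in the less weight loss pool. Its signal was 204 to 280 in saline and 439 to 698 in GALP channels, and its mean of 1.07 ± 0.12, or 2.09-fold, was the 12th highest of the 15724 probes.

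The probe of NM_134246 (A_51_P420489, chr12:85399588-85399647, plus strand) had 0.94 and 0.81 in the greater weight loss pool and 1.10 and 0.91 in the less weight loss pool. The pools overlapped here too, since the lower array of the pool with less weight loss stood under the higher array of the other pool. The signal was 149 to 171 in saline and 261 to 334 in GALP channels, with no overlap, and the mean was 0.94 ± 0.10 or 1.92-fold. The ratios of the 2 probes thus overlapped, and whether they differ was not tested. Whether each probe reads only the transcript it is named for was not tested either.

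The calls of Acot1 and Acot3 were lost when both the background correction and the normalisation were changed to normexp with loess. Before scaling, the brightness of A_51_P420489 above its local background was 11.3 to 30.5 scanner units in saline and 36.4 to 71.2 in GALP channels, and that of A_52_P1156957 was 28.0 to 42.6 and 54.8 to 123.6. The normexp alternative adds 50 units to every spot. The brightness of the Acot1 probe, 556 to 1188 and 863 to 1628, was well above that offset, and Acot1 lost its call as well. The parts of the offset and of loess in this were not tested. With normexp correction at an offset of 50 and loess, the means were 0.51 and 0.36 for the probes of Acot3 and 0.52 for Acot1, all above 0.

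Acot2, the mitochondrial enzyme of the group, had 0.41 and 0.30 in the greater weight loss pool and 0.42 and 0.53 in the less weight loss pool (NM_134188, chr12:85334071-85334130, plus strand). All 4 arrays were above 0 and the pools did not overlap, though only by a narrow margin. The mean was 0.42 ± 0.09 or 1.33-fold, and the software's p-value was under 0.01 on 0 arrays. The signal was 117 to 152 in saline and 144 to 204 in GALP channels, and with the normexp correction the mean was 0.13. Before scaling, the brightness above local background was only 11.0 to 26.5 scanner units in saline and 25.3 to 45.3 in GALP channels.

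Acot4, a peroxisomal enzyme that also splits succinyl-CoA, has 2 probes (both NM_134247). The probe A_52_P215170 (chr12:85384821-85384880, plus strand) had 0.19 and 0.27 in the greater weight loss pool and 0.57 and 0.44 in the less weight loss pool, so the pools stood apart. The probe A_51_P396141 (chr12:85384162-85384221, plus strand) had 0.28 and 0.41 against 0.41 and 0.64, so the pools just touched. The means were 0.37 ± 0.20 and 0.44 ± 0.13 (1.29-fold and 1.35-fold), with a p-value of the software under 0.01 on 1 array for each. The highest pool fold of a member that was not called was that of the second probe, 1.44-fold in the less weight loss pool.

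Acot6, a peroxisomal enzyme for branched chains, went both ways. Its 1 probe above background (A_51_P191354, chr12:85451951-85452010, plus strand) had -0.27 and -0.64 in the greater weight loss pool and 0.34 and 0.19 in the less weight loss pool. Both arrays of the first pool were below 0 and both of the second above it, an order that 5.81% of all probes above background showed in one direction or the other, and the pool values were -0.45 and 0.26, a mean of -0.10 ± 0.51. The saline pool, the same RNA on all arrays, itself read from 154 to 311 on this probe, a 2.02-fold range, while it varied 1.10-fold on the Acot1 probe and 1.15-fold to 1.37-fold on those of Acot3. The 311 was read on the array of the pool with less weight loss that carried GALP in Cy3. The GALP channel of that same array read 354, against 195 on the other array of that pool, so both channels were high there. The probe was dim. Before scaling, its brightness above local background was 12.4 to 37.8 scanner units in saline and 18.2 to 40.1 in GALP channels. The other 2 Acot6 probes (A_52_P115292 and A_52_P229705) were not well above background in any channel, so no fold is given for them.

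**Figure D2:**
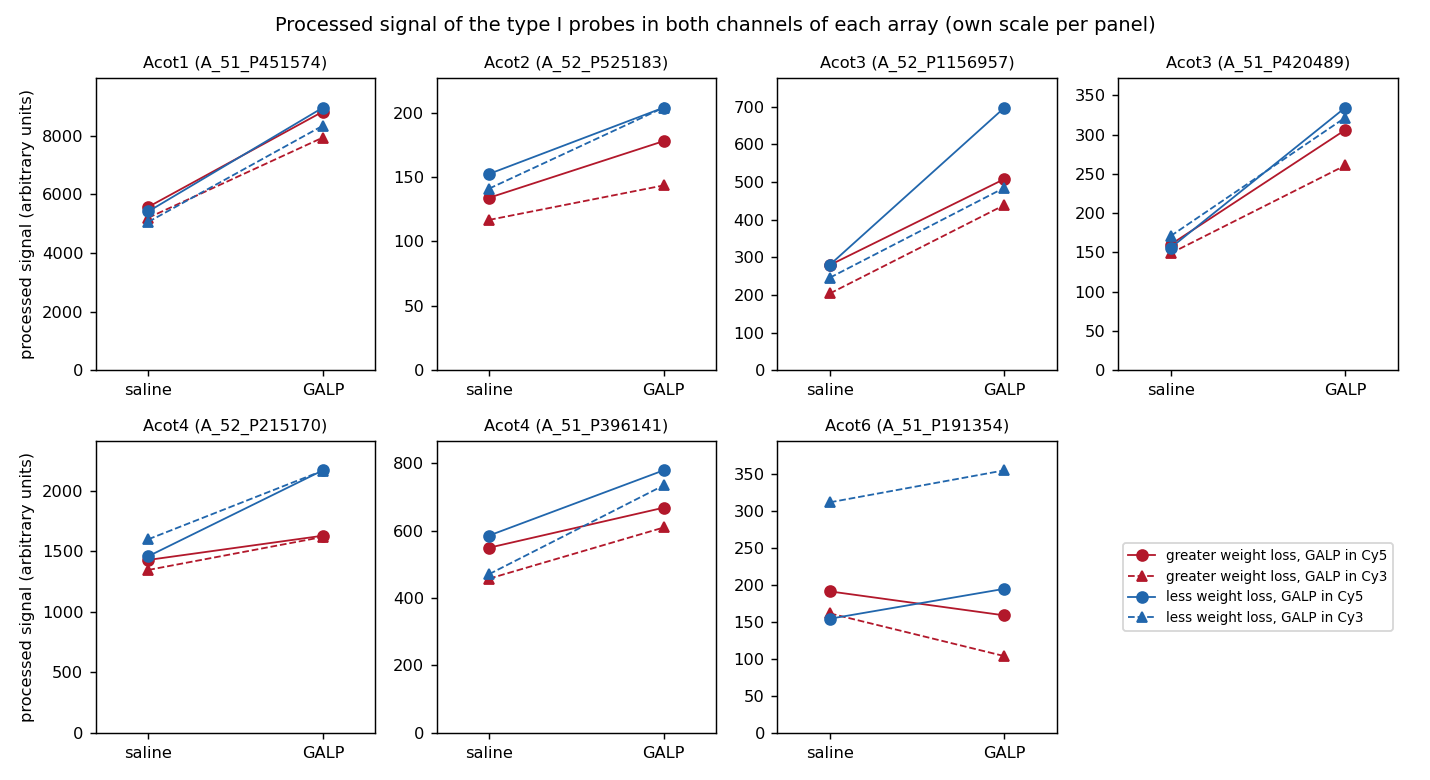
Each panel shows 1 type I probe, with the processed signal (arbitrary units, axis from 0, own scale per panel) of the saline and the GALP channel joined by a line for each of the 4 arrays. For Acot1 and both Acot3 probes all GALP points lie above all saline points, while for Acot6 the red lines fall, the blue lines climb, and 1 array starts at 311.

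Of the type II genes, 4 had means near 0 and Acot9 a mean of 0.26, and for Acot7, Acot8 and Acot9 the arrays sorted by dye. Acot7, a cytosolic enzyme best known from brain (NM_133348, chr4:151645802-151645861, plus strand), had 0.19 and 0.09 with GALP in Cy5 but -0.13 and -0.14 with GALP in Cy3. Acot9, a mitochondrial enzyme (NM_019736, chrX:151731124-151731183, plus strand), had 0.48 and 0.44 with GALP in Cy5 and -0.00 and 0.12 with GALP in Cy3. For both, the arrays with GALP in Cy5 were the higher ones, and the means over the dye swap were 0.00 ± 0.04 and 0.26 ± 0.03.

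Acot8, a peroxisomal enzyme of broad chain preference (NM_133240, chr2:164618360-164618419, minus strand), had -0.10 and 0.09 in the greater weight loss pool and -0.03 and 0.18 in the other, so that here the arrays with GALP in Cy3 were the higher ones. Acot12, which splits acetyl-CoA in the cytosol of liver (NM_028790, chr13:91925586-91925645, plus strand), had -0.07 and 0.10 against 0.14 and 0.10. Acot13, also known as Them2 (NM_025790, chr13:24909838-24909897, minus strand), had 0.15 and -0.15 against -0.07 and -0.01. Each of these 3 genes had arrays on both sides of 0, and their means were 0.03 ± 0.06, 0.07 ± 0.07 and -0.02 ± 0.03.

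By group, 6 of the 7 type I probes above background were above 0 on all 4 arrays, and 0 of the 5 probes of the type II members were. Acot10, a relative of Acot9 that is not among the members, was above 0 on all 4 as well, with a mean of 0.34. Of all 15724 probes above background, 11.4% were above 0 on all 4 arrays and 15.7% were below. The median over those probes was -0.02, and the middle 95% ran from -0.49 to 0.41. Acot1, Acot2, both probes of Acot3 and the probe A_51_P396141 of Acot4 lay above that range, Acot2 only just, and the other Acot4 probe and all type II probes lay within it.

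Between the GALP pools, 4 of the 12 probes had both arrays of the pool with less weight loss above both arrays of the other (Acot1, Acot2, Acot6 and the probe A_52_P215170 of Acot4), and 0 had the reverse order. Over all probes above background these shares were 11.4% and 13.6%. Greater minus less was -0.09 for Acot1, -0.12 for Acot2, -0.16 and -0.14 for Acot3, -0.28 and -0.18 for Acot4 and -0.72 for Acot6. All of these type I differences were below 0, while the dye exchange moved the same ratios by up to 0.34 in Acot3 and 0.37 in Acot6. Among the type II members, Acot8 had -0.08, Acot9 -0.04 and Acot12 -0.10, while Acot7 had 0.05 and Acot13 0.04. A sign below 0 was thus not particular to type I. The share of all probes with a difference below 0 was not computed. Over all probes above background the median difference was 0.01 and the median of its size 0.11. With 1 pool a group no test of the difference is possible, and both pools share the saline pool. With the normexp correction the differences of Acot2 and of the Acot3 probe A_51_P420489 turned to 0.03 and 0.07.

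Along chromosome 12 the order of the genes in RefSeq is Numb, Heatr4, Riox1, Acot2, Acot1, Acot4, Acot3, Acot5, Acot6, Dnal1, Pnma1 and Mideas. The 4 genes whose probes were above 0 on all 4 arrays are the first 4 thioesterases of that run. Acot5, a peroxisomal type I gene that lies between Acot3 and Acot6, was at background in every channel. On the near side, Heatr4 had no probe, Riox1, a histone and ribosomal protein hydroxylase, had 0.29, 0.28, 0.32 and -0.06 (mean 0.21 ± 0.11), and the 2 probes of Numb above background had -0.01 ± 0.02 and 0.07 ± 0.07. On the far side, Dnal1 and Pnma1 were at background and Mideas was above it in 1 channel only.

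**Figure D3:**
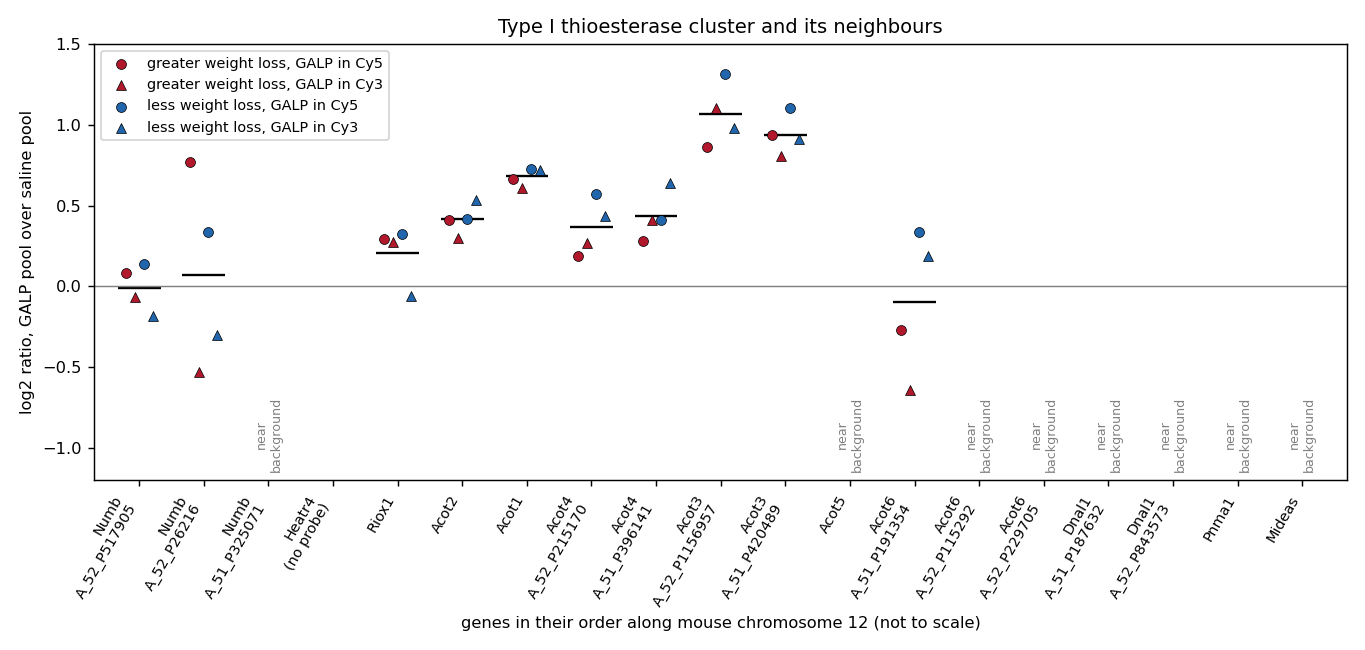
Log2 ratios of GALP over saline for each probe of the type I cluster and of the 3 genes on either side, in their order on chromosome 12 and not to scale, with colours and symbols for pool and dye and black bars for means over the 2 pools. The probes of Acot2, Acot1, Acot4 and Acot3 lie above 0 on all arrays, while Numb and Riox1 have arrays on both sides of 0 and the genes beyond Acot6 carry no point because their probes were near background.

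The sequences upstream of these genes are shown because 4 neighbours had ratios of the same sign. RefSeq windows of 250 bases before to 50 after the start (GRCm38.p6) were held for 8 of the 10 members, Acot6 and Acot13 having none in the table, and for Acot5. The 250 bases before the start of Acot1, Acot3 and Acot4 follow, 5′ to 3′ on the strand of the gene. Capitals mark the motifs searched on both strands, namely the CCAAT box, the GC box GGGCGG, the TATA box TATAAA, the E-box CACGTG, the nuclear receptor site AGGTCA and the PPAR element DR1. DR1 is AGGTCA repeated with 1 base between, and up to 2 mismatches were allowed in the marked matches. A DR1 match can hold an AGGTCA match, and in Acot4 TATAAA overlaps its own reverse.

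Acot1, chr12:84009252-84009501, plus strand: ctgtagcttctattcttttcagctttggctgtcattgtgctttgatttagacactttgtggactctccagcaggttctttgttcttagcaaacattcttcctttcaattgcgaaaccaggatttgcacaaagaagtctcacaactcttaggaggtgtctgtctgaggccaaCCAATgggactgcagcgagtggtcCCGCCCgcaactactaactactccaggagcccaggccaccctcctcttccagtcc

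Acot3, chr12:84051894-84052143, plus strand: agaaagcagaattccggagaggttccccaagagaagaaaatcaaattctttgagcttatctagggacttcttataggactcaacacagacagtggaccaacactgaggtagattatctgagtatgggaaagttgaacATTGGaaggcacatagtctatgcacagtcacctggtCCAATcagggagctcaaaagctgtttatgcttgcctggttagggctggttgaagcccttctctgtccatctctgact

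Acot4, chr12:84038129-84038378, plus strand: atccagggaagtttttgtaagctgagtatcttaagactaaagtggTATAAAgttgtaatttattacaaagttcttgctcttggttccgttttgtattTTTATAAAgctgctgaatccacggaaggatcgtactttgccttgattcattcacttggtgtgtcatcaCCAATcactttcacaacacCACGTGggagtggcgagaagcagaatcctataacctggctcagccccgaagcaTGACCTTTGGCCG

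A CCAAT match was present in the windows of the type I genes Acot1, Acot2, Acot3, Acot4 and Acot5 and of the type II genes Acot8 and Acot9, and 37.4% of the 32851 windows in the table held one. No member window held an exact DR1, which was present in 0.0396% of windows. With up to 2 mismatches a DR1 match was found in Acot4 (2 mismatches, from position -13 counted from the start, the last capitals above) and in Acot12 (1 mismatch, from position -110), and in 3.86% of all windows. The single AGGTCA lies within both of these DR1 matches and also occurs in the window of Acot3 just after the start, outside the bases printed, and in that of Acot5, which was at background on the arrays, and 16.3% of windows held one. Of the 5 type I windows, Acot4 alone had TATAAA and CACGTG, which were in 13.6% and 7.15% of windows, and Acot1 alone had GGGCGG, which was in 35.7%. Between any 2 of these 5 windows the longest shared run was 7 to 10 bases. These matches describe the letters in the windows and no factor was measured.

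The related type I enzymes outside the cluster had ratios of the other sign. Baat, which joins bile acids to taurine and glycine, had -0.16 ± 0.03 and -0.19 ± 0.09 on its 2 probes, Acnat1, which joins fatty acids to taurine, had -0.21 ± 0.01 and its neighbour Acnat2 had -0.27 ± 0.14. All of these probes were below 0 on all 4 arrays and none was called. Their median was -0.21 at 1 probe per gene, against -0.01 over all 11378 genes above background.

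Over all 26518 genes on the array with values, 22 were called higher and 50 lower, so a list of this size with few or no calls is not set apart by that count. Among the other thioesterases and acyl-CoA hydrolases, 12 of 15 genes were above background, 0 were called higher and 1 lower, with a median of -0.03. The gene called lower was Nudt7, a peroxisomal hydrolase that cuts coenzyme A and its acyl esters. It had -0.68 and -0.58 in the greater weight loss pool and -0.63 and -0.65 in the other, with a mean of -0.64 ± 0.01, and its other probes had -0.50 ± 0.06 and -0.38 ± 0.19. All 3 Nudt7 probes were thus below 0 on all 4 arrays. Mblac2, an acyl-CoA hydrolase of the palmitoyl type, had -0.44 ± 0.07 and, on its other probe, -0.59 ± 0.01. Neither probe was called. Acot10, a mitochondrial relative of Acot9, had 0.27 to 0.42 on the 4 arrays (mean 0.34 ± 0.00), and Acot11, an enzyme of brown fat, had -0.02 ± 0.25.

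The enzymes that make acyl-CoA, the reverse step, had 0 genes called of 13 above background, with a median of 0.03. Acsl3, a long-chain synthetase of lipid droplets, had -0.49 ± 0.04 and Acss2, the cytosolic acetyl-CoA synthetase, -0.29 ± 0.10. The genes of coenzyme A synthesis had 0 called of 7 and a median of -0.03, and the lowest were the kinase Pank3 with -0.31 ± 0.08 and Ppcs with -0.11 ± 0.03.

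The genes of fatty acid oxidation were near 0 as groups. In mitochondria 0 of 16 genes were called, with a median of 0.02, where Cpt1a, the entry step for long chains, had 0.24 ± 0.13 and Eci1 had -0.13 ± 0.08. In peroxisomes 0 of 17 genes were called, with a median of -0.03, where Pex11a, a protein of peroxisome division, had 0.31 ± 0.13 and Crot, the octanoyl transferase, had -0.29 ± 0.12. Of the other PPARalpha targets 0 of 16 were called, with a median of 0.01. There Cidec, a lipid droplet protein, had 0.57 and 0.92 against 0.53 and 0.99 (mean 0.75 ± 0.01, p-value under 0.01 on 3 of 4 arrays), and Cyp4a12a, a fatty acid hydroxylase, had -0.40 ± 0.35. The type I thioesterase probes thus ran from -0.10 to 1.07 and the other PPARalpha targets from -0.40 to 0.75, and no test of the difference was made because the members had been chosen on this contrast.

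**Figure D4:**
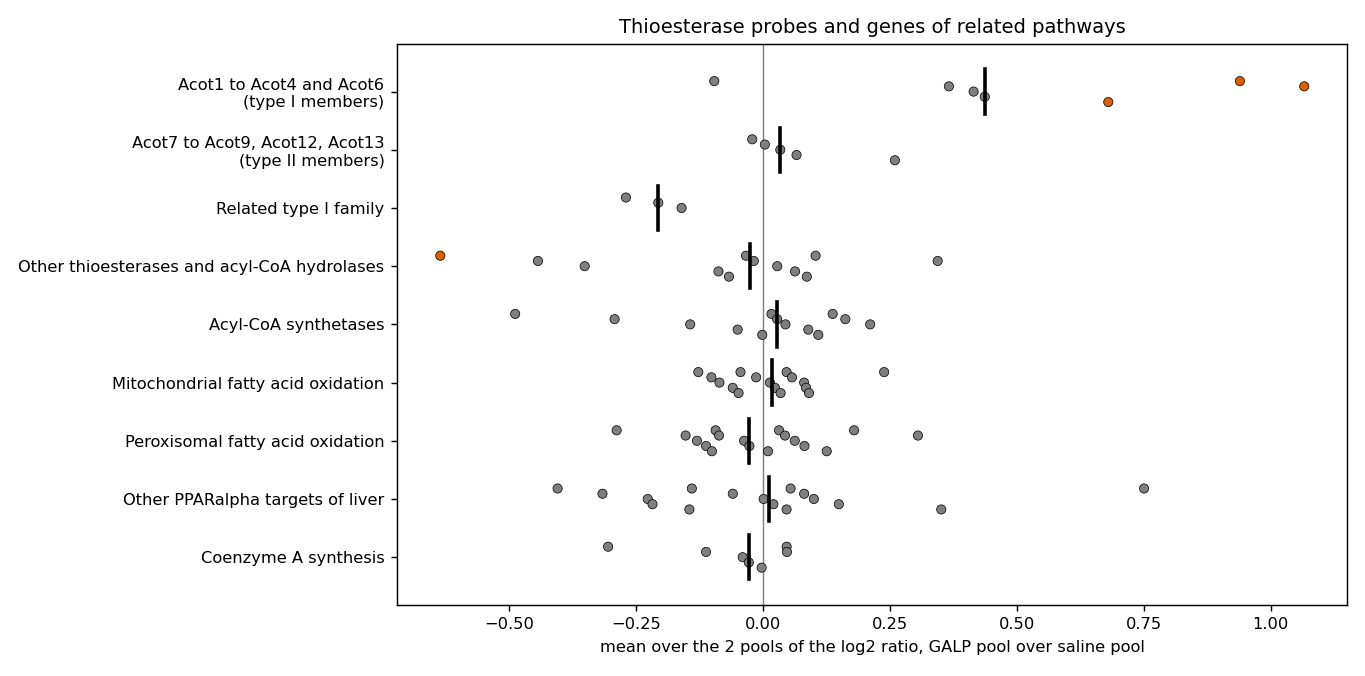
Each point is the mean over the 2 pools of the log2 ratio of GALP over saline, for each thioesterase probe in the upper pair of rows and for 1 probe per gene in the lists of related pathways, orange where called by the rule of the methods. Vertical bars are medians, which lie between -0.21 and 0.03 for the lists.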

How the data were processed

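Liver RNA pools were measured on 4 two-colour Agilent arrays of 1 slide. The authors used Agilent Feature Extraction (12.0.3.1 in the file headers, 11.0.1.1 in the submitters' processing notes) to correct the background and normalise the dyes, which gave the deposited intensity (processed signal) of each channel. Their deposited log10 ratio for a spot is Cy5 over Cy3 of those signals, and the deposited p-value comes from an error model for a single array. The authors' series table, with these log10 ratios already oriented as GALP over control, served as an alternative. Here ratios were oriented in that way and taken to log2. Outlier-marked spots (232 to 319 per array, none of a member) were removed, and means were taken over the spots of a probe and then over both arrays of a pool. The saline channel, which the labels place in a weight loss group as well, was treated as 1 pool.

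A probe was well above background when the software marked it so in at least 1 channel of every array. In lists, the probe with the highest mean signal stood for a gene. The genes named are all members with every probe, from each list the called genes and the 2 with the largest absolute mean ratio, and the relatives, neighbours and cell type markers of the text. The members and lists were chosen with earlier results of these data known. Limma 3.58.1 in R 4.3.3 was fitted to the 2 pool ratios over 41037 probes, with 1 residual degree of freedom. Alternatives were normexp (offset 50) with loess, centring, the series table, no outlier filter, each dye orientation, each pool left out, other p-value and fold rules, only probes well above background, an intensity trend in limma, and other summaries over spots and probes. Motifs were searched in RefSeq windows (GRCm38.p6), and probe positions are on mm9. Python 3.11.15, numpy 2.4.6, pandas 2.3.3 and matplotlib 3.10.9 were used. Precision is limited by the number of arrays and, for dim probes, by their signal over background.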

Additional observations from a re-analysis of the deposited data

Results flagged for a closer look

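The probe A_51_P191354 of Acot6 moved one way on both arrays of the pool with greater weight loss and the opposite way on both arrays of the pool with less, with a difference (greater minus less) of -0.72 on the log2 scale. The difference was not tested, since each group is 1 pool. Of the 15724 probes well above background, 5.81% had opposite signs in the pools in the same way. The difference was -0.18 with normexp correction and loess. The probe was dim, with a brightness above local background of at most 37.8 scanner units in saline and 40.1 in GALP channels.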

How the results depend on the processing

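The 6 probes of Acot1 to Acot4 kept a mean above 0 under all 9 alternatives run for single probes. For Acot1 it lay between 0.52 and 0.72, and for Acot3 between 0.51 and 1.15 and between 0.36 and 1.02. For Acot2 it lay between 0.13 and 0.48, and for Acot4 between 0.27 and 0.53 and between 0.20 and 0.50. Most of these alternatives could not have turned the sign. The probes were above 0 on every array, so a mean over fewer arrays was bound to be above 0. Each had 1 spot and no outlier mark, so the spot and outlier settings left the values unchanged. The series table and centring gave the same values as well. Only normexp with loess changed the values through the processing itself. The 3 called probes of Acot1 and Acot3 were called under each alternative except normexp with loess (0 members called) and a fold over 2 or under 0.5 (0 called). Many of the others could not have removed a call. Dropping or loosening the p-value and leaving out a pool ask for less than the main rule. The settings that left the ratios of these probes unchanged left their calls unchanged too. The normexp alternative changes the background correction, its offset and the normalisation together, and the cause of the loss was not tested. Of 243 single values and medians recomputed, 31 moved beyond a set limit and 0 called values reversed. The limit for a probe mean was its SD over the pools, and for a pool difference the larger dye difference. For a list median it was a fixed step. The member probes with less above greater weight loss on every array went from 4 to 2 with normexp. With GALP in Cy5 alone or in Cy3 alone the count was 9, but there each pool has 1 array. The measure is then only the sign of 1 difference, so the 9 cannot be set beside the 4. The shares over all probes were not computed under these alternatives, and nothing is read from the counts.

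Over all probes, the 24 higher and 54 lower calls became 9 and 26 with normexp, 134 and 140 with GALP in Cy5 alone, 140 and 156 with GALP in Cy3 alone, 154 and 360 without the p-value, 53 and 167 where the p-value had to hold on only 1 array per pool, and 3 and 24 with a fold over 2 or under 0.5. With 1 pool left out they were 96 to 122 higher and 150 to 162 lower. Limma went from 0 to 42 higher and 53 lower with normexp, and to 1 lower with only probes well above background. In the pathway lists, 1 gene (Cidec) was called higher with GALP in Cy3 alone and 2 lower (Nudt7 and Mblac2) in either dye orientation alone. With 1 pool left out, 0 to 1 was called higher (Cidec) and 2 lower (Nudt7 with Cyp4a12a or Cidea). Every ratio already pairs GALP with saline on the same array, and the 2 arrays of a pool are a dye swap of the same RNA. The labels pair no mice between the pools, so no further pairing was used. With 2 pools and 1 saline pool, differences between mice cannot be assessed.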
